A study of Mus musculus with 9 samples.

Results

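The genes described here are 9 that antigen-presenting cells use to display peptides to helper T cells and to tune the T cell's answer. They are Cd74, H2-Aa, H2-Ab1, H2-Eb1 and Ciita of the MHC class II pathway, the costimulatory ligand genes Cd80 and Cd86, and the coinhibitory ligand genes Cd274 and Pdcd1lg2. They were taken by symbol from a table of 35673 gene symbols, and all 9 were among the 21341 genes that passed the filter on low counts. The table holds bulk RNA-seq read counts of basophils grown from C57BL/6J wild-type mouse bone marrow in 0.3 ng/mL IL-3 for 7 days and selected for surface CD49b with magnetic particles. Each library came from 10000 cells treated for 4 hours, and there were 3 libraries in each of 3 groups. Difamilast libraries came from cells given IL-3 with IL-33, each at 10 ng/mL, and 3 µM difamilast, an inhibitor of the cAMP-degrading enzyme family PDE4. Stimulated libraries came from cells given the same cytokines with the vehicle DMSO, and resting libraries from cells given PBS with DMSO. All the cells had thus been grown in IL-3 before any treatment, and difamilast without cytokines was not analysed here. Whether the replicates came from different cultures or mice is not in the labels, and the p-values therefore cover only how far these libraries vary, which may be technical variation.

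MHC class II molecules are pairs of an alpha and a beta chain that carry peptides from endosomes to the cell surface, where CD4 T cells read them. Cd74 encodes the invariant chain, which escorts new class II molecules to the endosome, and Ciita encodes the coactivator that switches class II genes on. CD80 and CD86 bind CD28 and CTLA-4 on the T cell, whereas PD-L1, encoded by Cd274, and PD-L2, encoded by Pdcd1lg2, bind the inhibitory receptor PD-1. Whether basophils make class II molecules themselves or take them up from dendritic cells has long been debated.

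The class II chain genes sit together on chromosome 17 (GRCm38, GENCODE vM21): H2-Ab1, the beta chain of the I-A molecule, from 34257689 to 34269419, H2-Aa, the alpha chain of I-A, from 34282744 to 34287823 on the minus strand, and H2-Eb1, the beta chain of I-E, from 34305867 to 34316674. Class II promoters are known for an X box and a Y box, on which the RFX, CREB-family and NF-Y proteins assemble before CIITA joins them. RefSeq promoters were at hand for 5 of the 9 genes, H2-Aa, H2-Eb1, Cd80, Cd274 and Pdcd1lg2. The 250 bases before the start site of the H2 pair are shown because both genes were lower in stimulated than in resting cells (GRCm38.p6; H2-Aa chr17:34287824-34288073, minus strand; H2-Eb1 chr17:34305617-34305866, plus strand). Capitals mark matches, on either strand, to the words GCAAC (X box core), ATTGG (Y box core), TGACGTCA (the cAMP response element, CRE), GGGANTTNCC (NF-kB), TTCNNNGAA (STAT) and GAAANNGAAA (IRF).
H2-Aa: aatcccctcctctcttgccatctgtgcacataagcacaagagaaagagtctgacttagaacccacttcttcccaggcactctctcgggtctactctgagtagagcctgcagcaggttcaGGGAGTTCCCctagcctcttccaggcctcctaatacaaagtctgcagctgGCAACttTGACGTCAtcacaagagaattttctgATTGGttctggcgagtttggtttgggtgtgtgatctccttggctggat
H2-Eb1: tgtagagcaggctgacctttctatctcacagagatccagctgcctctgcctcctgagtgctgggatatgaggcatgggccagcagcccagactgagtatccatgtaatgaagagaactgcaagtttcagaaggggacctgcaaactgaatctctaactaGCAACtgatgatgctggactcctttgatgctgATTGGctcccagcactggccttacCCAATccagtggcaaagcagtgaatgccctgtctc

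In both promoters GCAAC was followed on the gene's strand by ATTGG, with 28 bases between them in H2-Aa and 27 in H2-Eb1. An arrangement of this kind, with 10 to 40 bases between the words, was present in 208 of 32851 promoters of the same length (0.633%). H2-Aa also held the CRE word from 74 to 67 bases before the start, between its X and Y words, and the NF-kB word from 131 to 122 bases before it. The CRE word was found in 1.55% and the NF-kB word in 0.98% of all promoters, GCAAC in 29.9% and ATTGG in 33.9%. Neither the STAT word (7.02% of promoters) nor the IRF word (2.98%) was in any of the 5 windows. Cd80's window (chr16:38458683-38458932, plus strand) held GCAAC on the opposite strand, from 63 to 59 bases before the start, and no other of the words. It precedes the start site in RefSeq but lies within the span that GENCODE gives the gene. The words were chosen with these sequences in view, and a match describes letters, not binding.

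The PD-1 ligand genes are neighbours on chromosome 19, Cd274 from 29367455 to 29388095 and Pdcd1lg2 from 29410919 to 29471161, both on the plus strand with 22823 bases between them. Their promoters are given because these neighbours had the largest rises with stimulation among the 9 genes (GRCm38.p6, plus strand; Cd274 chr19:29367188-29367437, Pdcd1lg2 chr19:29410669-29410918). None of the 6 words was in either window, so neither holds capitals.
Cd274: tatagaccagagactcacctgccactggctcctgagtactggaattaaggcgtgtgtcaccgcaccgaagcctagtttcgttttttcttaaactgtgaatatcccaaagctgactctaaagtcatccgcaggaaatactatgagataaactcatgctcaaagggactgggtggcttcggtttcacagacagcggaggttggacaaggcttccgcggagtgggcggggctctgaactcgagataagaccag
Pdcd1lg2: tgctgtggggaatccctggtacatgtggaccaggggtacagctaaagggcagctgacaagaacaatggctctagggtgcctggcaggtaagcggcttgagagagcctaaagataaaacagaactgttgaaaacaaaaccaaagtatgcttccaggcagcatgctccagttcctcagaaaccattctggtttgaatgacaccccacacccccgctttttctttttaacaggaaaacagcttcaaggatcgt

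Cd80 and Cd86 lie on chromosome 16, Cd80 from 38455561 to 38496335 on the plus strand and Cd86 from 36603869 to 36666081 on the minus strand, and Ciita on the same chromosome from 10480059 to 10528418. Cd74 is on chromosome 18. Exons of Ciita overlap those of Dexi on the other strand, exons of Cd274 those of AC119228.1 on the other strand, and Cd74 holds Mir5107 on its own strand. Whether the counting used strand is not given in the sources used here. In CPM, counts relative to the library total after TMM scaling, Dexi itself lay at 19.8 ± 3.17 CPM in difamilast, 19.7 ± 0.925 in stimulated and 18.4 ± 3.01 in resting libraries (SD, n = 3 each).

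Library totals ran from 24812305 to 30299575 counts in the difamilast, 11798711 to 38098584 in the stimulated and 6261446 to 14795353 in the resting group. The 9 genes together received 20456 to 93260 counts per library. TMM scaling factors, which correct for a few genes taking a large share of a library, were 0.851 to 0.916 in difamilast, 0.871 to 0.892 in stimulated and 1.23 to 1.32 in resting libraries. With totals alone as the scale, the median log2 fold change of all tested genes between stimulated and resting libraries was -0.47, against 0.06 with TMM, so directions in that comparison are relative to the bulk of genes. Short transcripts were lower in difamilast than in stimulated libraries, with a median log2 fold change of -0.31 for lengths under 750 bases, -0.38 for 750 to 1000 bases and -0.15 for 1000 to 1500 bases, the range that holds Cd74, H2-Aa and H2-Ab1. For stimulated over resting libraries the medians of these ranges had the opposite sign, at 0.22, 0.20 and 0.10. They were -0.05 for 1500 to 2500 bases and -0.08 for 2500 to 4000 bases. All 12 basophil markers, among them the protease gene Mcpt8 and the IgE receptor gene Fcer1a, were detected in every group. Their summed level was 14988 to 15679 CPM in difamilast, 13256 to 14110 in stimulated and 7330 to 8446 in resting libraries. Markers of other cell types were detected as well, so these levels do not settle which cells held the class II transcripts. The 14 monocyte and macrophage markers were also all detected in every group. They summed to 4586 to 5002 CPM in difamilast, 4802 to 5110 in stimulated and 6182 to 7707 in resting libraries. The 12 dendritic cell markers summed to 152 to 203 CPM in difamilast, 205 to 234 in stimulated and 128 to 152 in resting libraries, and the 9 B cell markers to 45.4 to 53.6 in difamilast, 50.3 to 57.4 in stimulated and 49.1 to 57.1 in resting libraries. Flt3 and Zbtb46, which are among the dendritic cell markers, averaged between 1.15 and 2.08 CPM in every group, and Cd209a was at 0 counts in the resting group. Of the 12, 3 averaged under 1 CPM in difamilast libraries, Cd209a among them, and Cd209a alone did so in stimulated and resting ones. Most of each sum came from other markers of the list, among which Bst2 was the highest in stimulated libraries. In bulk RNA, fewer cells of a type and less RNA per cell cannot be told apart.

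Stimulation with IL-3 and IL-33 lowered the class II chain genes and raised the ligand genes. H2-Aa, H2-Ab1 and H2-Eb1 fell 1.23-fold to 1.32-fold, the invariant chain gene Cd74 had nearly equal levels in both groups, and the PD-1 ligand genes rose 4.08-fold and 5.19-fold. Cd80, Cd86 and the regulator gene Ciita rose less than 2-fold. In edgeR's quasi-likelihood fit, with p-values adjusted after Benjamini and Hochberg over the whole table, 5 of the 9 genes rose and 3 fell at the threshold of 0.05, beside 31.7% of all tested genes (15.3% higher and 16.4% lower). For 8 of the 9, every stimulated library was on the same side of every resting one, beside 43.7% of all tested genes (23.2% higher and 20.6% lower). With library totals as the scale 2 of the 9 were called higher and 4 lower. The median log2 fold change was 0.62 over the 9 genes and 0.06 over all tested genes.

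Difamilast had its clearest effect on Cd80, which was 3.71-fold higher than in stimulated cells with vehicle. Ciita was 2.18-fold lower. So 1 of the 9 genes rose and 1 fell, beside 3.44% of all tested genes (2.21% higher and 1.24% lower), and the other 7 did not pass the threshold. For 7 of the 9, Cd74, Cd80, Cd86 and Cd274 above and H2-Aa, Ciita and Pdcd1lg2 below, the difamilast and stimulated libraries did not overlap, beside 24.8% of all tested genes (12.2% higher and 12.6% lower). The median log2 fold change was -0.04 over the 9 genes and -0.0029 over all tested genes. Both comparisons use the same stimulated libraries.

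**Figure D1:**
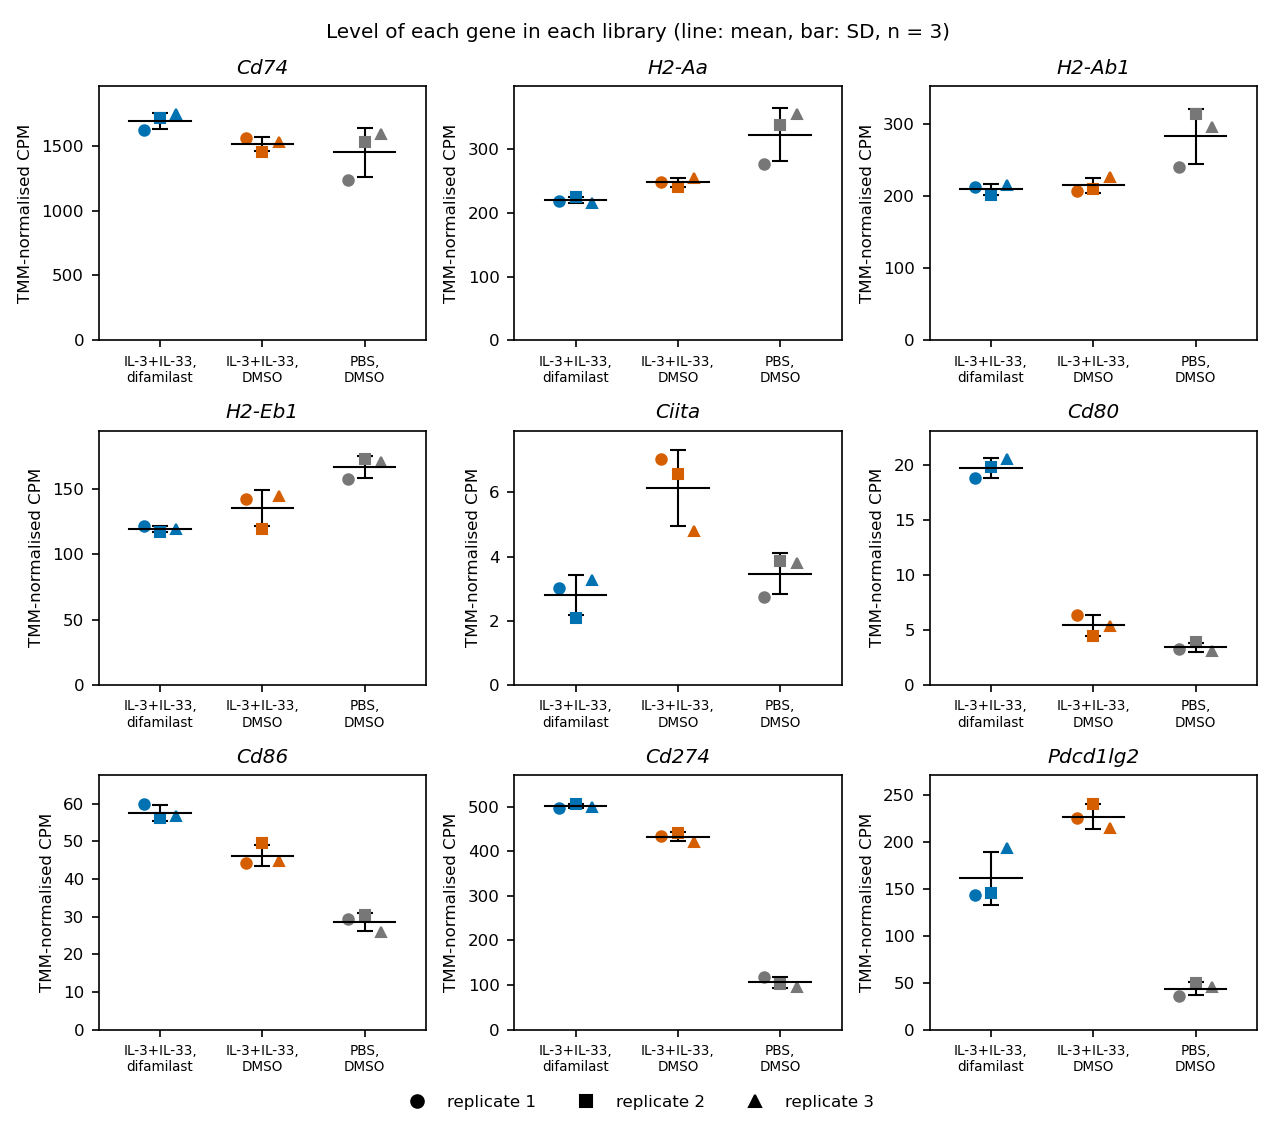
Level of the 9 genes in TMM-normalised CPM on linear axes from 0, with 1 point per library, a line for the mean and a bar for the SD of 3 libraries; groups from left to right are difamilast, stimulated and resting. Cd80 lay at 18.8 to 20.5 CPM in difamilast libraries and at most at 6.37 elsewhere, and Ciita was highest in the stimulated group.

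The genes of the alpha and beta chains of I-A both fell with stimulation. H2-Aa lay at 218, 226 and 216 CPM in difamilast replicates 1 to 3, at 249, 241 and 255 in stimulated and at 277, 338 and 355 in resting replicates. The 3 groups did not overlap, and resting libraries were highest. H2-Ab1 lay at 212, 201 and 215 CPM in difamilast, 208, 209.9 and 226 in stimulated and 239.9, 313 and 295 in resting libraries. Here the difamilast and stimulated libraries overlapped and the resting ones stood above both. Between stimulated and resting libraries the log2 fold change was -0.38 ± 0.11 for H2-Aa (SE; adjusted p = 0.0118, edgeR) and -0.40 ± 0.11 for H2-Ab1 (adjusted p = 0.0113).

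H2-Eb1 lay at 122, 117 and 119.7 CPM in difamilast, 142, 119.9 and 145 in stimulated and 158, 173 and 171 in resting libraries. Stimulated replicate 2 fell among the difamilast libraries, while every stimulated library was below every resting one. The log2 fold change of stimulated over resting was -0.30 ± 0.10 (SE; adjusted p = 0.0335). The I-E beta chain needs an alpha partner, and C57BL/6 mice are known to lack its expression. H2-Ea, the gene of that partner, averaged 0.0649 CPM in stimulated libraries and had 0 counts in every difamilast and resting library, which allows up to 0.099 to 0.479 CPM by library total for counting error alone. Between difamilast and stimulated libraries none of the H2 genes passed. Their log2 fold changes were -0.17 (95% interval -0.40 to 0.05) for H2-Aa, -0.04 (-0.27 to 0.20) for H2-Ab1 and -0.18 (-0.40 to 0.04) for H2-Eb1.

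Without stimulated replicate 2 none of the H2 genes passed between stimulated and resting libraries. The adjusted p in edgeR was then 0.0596 for H2-Aa, 0.0539 for H2-Ab1 and 0.193 for H2-Eb1. The log2 fold changes were -0.36, -0.38 and -0.22. H2-Eb1 also missed the threshold without resting replicate 2 (0.0524) or 3 (0.0531), without difamilast replicate 2 (0.0557), in a fit of these groups alone (0.0583), with low counts unfiltered (0.0525) and after thinning each library to the smallest total count (0.0552), which left 15965 genes tested. With library totals as the scale the falls were larger, at -0.90 for H2-Aa, -0.92 for H2-Ab1 and -0.83 for H2-Eb1. Summed monocyte and macrophage markers were also lower in every stimulated library than in any resting one, while summed B cell markers overlapped. The part of other cells in the result was not tested.

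Cd74, the most abundant of the 9 genes, lay at 1628, 1719 and 1747 CPM in difamilast, 1565, 1455 and 1532 in stimulated and 1238, 1529 and 1595 in resting libraries. The stimulated and resting groups overlapped, and the difamilast libraries stood above both. The fold of stimulated over resting was 1.04 (95% interval 0.890 to 1.22; adjusted p = 0.71) and that of difamilast over stimulated 1.12 (0.955 to 1.31; adjusted p = 0.542). Without resting replicate 1 the log2 fold change of stimulated over resting was -0.07 in place of 0.06, and with library totals as the scale it was -0.46 (adjusted p = 0.0029).

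A ratio of 2 genes within a library does not depend on its scaling, and by this measure the H2 chains were lower relative to the invariant chain in each comparison. The log2 count ratio of H2-Aa to Cd74 was -2.90, -2.93 and -3.01 in difamilast, -2.65, -2.59 and -2.59 in stimulated and -2.16, -2.18 and -2.17 in resting libraries. The groups did not overlap, and the spread within a group was at most 0.06 (SD). The mean differed by -0.34 between difamilast and stimulated and by -0.44 between stimulated and resting libraries. For H2-Ab1 to Cd74 these differences were -0.20 and -0.46, and for H2-Eb1 to Cd74 -0.34 and -0.38, again without overlap. A two-sided exact permutation gave p = 0.1 for each, the lowest value possible with 3 libraries a side, and 0.15 after adjustment over 21 tests of 7 ratios, which were chosen after the values had been seen. For the chains of I-A the mean log2 ratio of H2-Aa to H2-Ab1 was 0.21 ± 0.05 in stimulated and 0.19 ± 0.08 in resting libraries (SD, n = 3; exact permutation p = 1). In difamilast libraries it was 0.07 ± 0.08, a difference of -0.14 from stimulated ones without overlap (exact permutation p = 0.1).

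**Figure D2:**
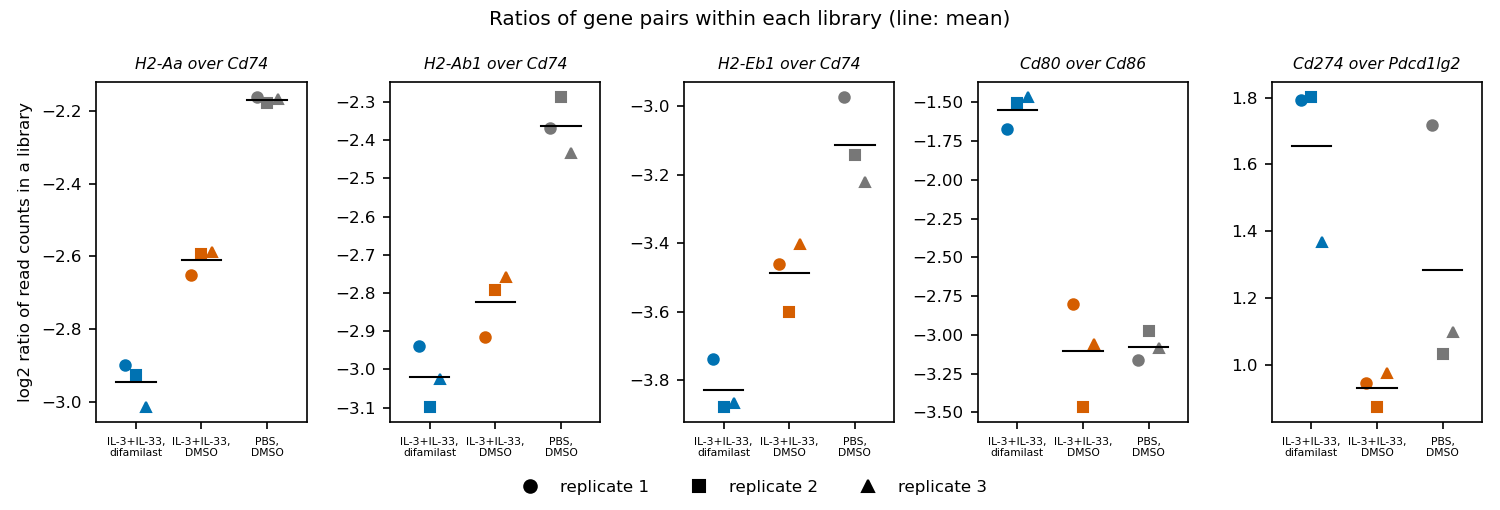
Log2 ratio of read counts of named gene pairs in each library, with 1 point per library and a line for the mean of 3; groups from left to right are difamilast, stimulated and resting, and the axes do not start at 0. H2-Aa over Cd74 ran from -3.01 in a difamilast library to -2.16 in a resting library with no overlap between groups, and Cd80 over Cd86 was at least -1.67 in difamilast and at most -2.80 in the other libraries.

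Ciita had the lowest level per kilobase of the 9 genes in each group. By CPM without length it averaged 6.13 in stimulated and 3.46 in resting libraries, above Cd80 with 5.41 and 3.39. It had 84, 57 and 69 counts in difamilast, 74, 221 and 148 in stimulated and 39, 70 and 30 in resting libraries, and these correspond to 3.03, 2.08 and 3.27 CPM in difamilast, 7.04, 6.56 and 4.80 CPM in stimulated and 2.73, 3.85 and 3.80 CPM in resting libraries. Every stimulated library was above every library of the other groups, and difamilast and resting libraries overlapped. The log2 fold change was -1.12 ± 0.24 for difamilast over stimulated (SE; adjusted p = 0.0132, edgeR), 0.82 ± 0.25 for stimulated over resting (adjusted p = 0.0198) and -0.31 ± 0.25 for difamilast over resting (adjusted p = 0.39). Ciita thus moved against the H2 genes with stimulation, the H2 genes being lower where their coactivator's transcript was higher.

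These calls for Ciita, made on few reads, depended on single libraries. The fall with difamilast missed the threshold without difamilast replicate 1 (adjusted p = 0.0512) or 2 (0.103) or stimulated replicate 1 (0.073) or 2 (0.0885), and after thinning (0.132). The rise with stimulation missed it without stimulated replicate 1 (adjusted p = 0.0817) or 2 (0.0757) or resting replicate 1 (0.0856), and with library totals as the scale (0.346). The log2 fold change kept its sign in each of the 18 alternative analyses, from -1.28 to -0.95 for difamilast over stimulated and from 0.30 to 1.04 for stimulated over resting. Dexi, on the other strand, had log2 fold changes of 0.02 (adjusted p = 0.981) and 0.10 (0.681) in these comparisons.

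Both costimulatory ligand genes rose with stimulation, and Cd80 rose again with difamilast. Cd80 lay at 18.8, 19.8 and 20.5 CPM in difamilast, 6.37, 4.48 and 5.38 in stimulated and 3.29, 3.85 and 3.04 in resting libraries. The groups did not overlap, and the difamilast libraries stood far above the others. The log2 fold change was 1.89 ± 0.17 for difamilast over stimulated (SE; adjusted p = 7.92e-06, edgeR), and it passed in all 18 alternatives. For stimulated over resting it was 0.62 ± 0.19 (adjusted p = 0.0218), a call lost without stimulated replicate 1 (0.101) or 3 (0.0583) or resting replicate 1 (0.0668) or 3 (0.077), and with library totals as the scale (0.714), limma-voom (0.0576) or a fit of those groups alone (0.0515).

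Cd86 lay at 60.0, 56.1 and 56.7 CPM in difamilast, 44.3, 49.5 and 44.8 in stimulated and 29.4, 30.3 and 25.8 in resting libraries. The groups did not overlap and the order was the same as for Cd80, with smaller steps at the difamilast end. Stimulation raised Cd86 by 0.69 ± 0.11 on the log2 scale (SE; adjusted p = 0.000231), a call lost with library totals as the scale (0.17; adjusted p = 0.32). Difamilast over stimulated gave 0.32 ± 0.11 (adjusted p = 0.16), which passed without resting replicate 1 (0.0384), with DESeq2 (0.0477) and in a fit of those groups alone (0.0365). The log2 count ratio of Cd80 to Cd86 was -1.67, -1.50 and -1.47 in difamilast, -2.80, -3.46 and -3.06 in stimulated and -3.16, -2.98 and -3.09 in resting libraries. It was higher by 1.56 in difamilast than in stimulated libraries without overlap (exact permutation p = 0.1, n = 3 each), and differed by -0.03 between stimulated and resting libraries, which overlapped (p = 0.9).

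The PD-1 ligand genes gave the largest responses to stimulation. Cd274 lay at 497, 507 and 500.1 CPM in difamilast, 435, 442 and 422 in stimulated and 119, 102 and 96.3 in resting libraries. The groups did not overlap, with the resting libraries far below the rest. Pdcd1lg2 lay at 144, 145 and 194 CPM in difamilast, 226, 241 and 214 in stimulated and 36.2, 50.0 and 45.0 in resting libraries. It was highest in stimulated cells, and difamilast replicate 3 stood above the other two of its group. For stimulated over resting the log2 fold change was 2.03 ± 0.10 for Cd274 (SE; adjusted p = 1.06e-09) and 2.38 ± 0.15 for Pdcd1lg2 (adjusted p = 7.49e-09), and both passed in all 18 alternatives.

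With difamilast the PD-1 ligand genes had fold changes of opposite sign, neither past the threshold. The log2 fold change over stimulated cells was 0.21 ± 0.10 for Cd274 (SE; 95% interval 0.0015 to 0.42; adjusted p = 0.336) and -0.50 ± 0.14 for Pdcd1lg2 (adjusted p = 0.0642). Pdcd1lg2 thus missed the threshold, which it passed without difamilast replicate 3 (-0.65, adjusted p = 0.0095), without resting replicate 1 (0.00699), with DESeq2 (0.0235), limma-voom (0.0249), library totals as the scale (0.0496), low counts unfiltered (0.00947), a fit of those groups alone (0.00996) and removal of the trend with transcript length (0.0328). The log2 count ratio of Cd274 to Pdcd1lg2 was 1.79, 1.80 and 1.37 in difamilast, 0.95, 0.88 and 0.98 in stimulated and 1.72, 1.03 and 1.10 in resting libraries. Difamilast and stimulated libraries did not overlap, by a mean difference of 0.72 (exact permutation p = 0.1), while difamilast and resting libraries did (p = 0.2).

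**Figure D3:**
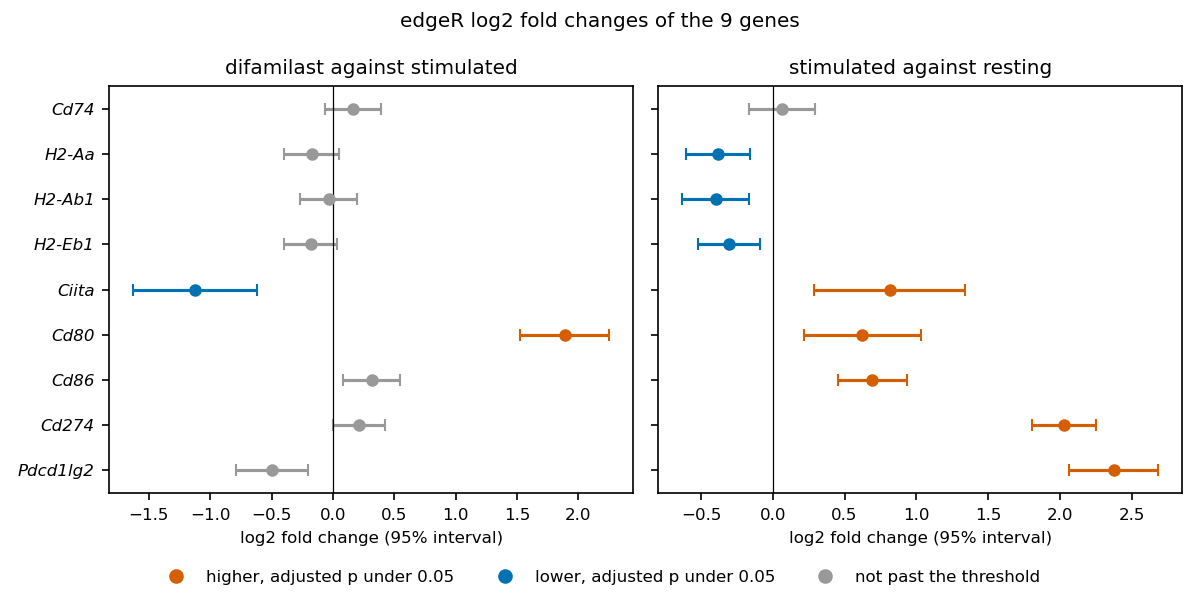
Log2 fold changes of the 9 genes from edgeR with 95% intervals, difamilast over stimulated on the left and stimulated over resting on the right, coloured by whether the adjusted p was under 0.05. With difamilast only Cd80 (1.89) and Ciita (-1.12) passed, and with stimulation Cd274 (2.03) and Pdcd1lg2 (2.38) moved most.

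Difamilast libraries were also set against resting ones, which shows where the genes stood after cytokines and inhibitor together. Here 4 of the 9 genes were higher and 3 lower, beside 32.8% of all tested genes (16.4% in each direction), and for 8 of the 9 the groups did not overlap, beside 42.9% of all tested genes (23% higher and 19.8% lower). Cd80 was 5.72-fold, Cd274 4.73-fold, Pdcd1lg2 3.68-fold and Cd86 2.01-fold higher than in resting cells (edgeR, adjusted p from 3.75e-10 to 5.72e-06). H2-Aa, H2-Ab1 and H2-Eb1 were 1.47-fold, 1.35-fold and 1.40-fold lower (adjusted p from 0.000865 to 0.00655), and Cd74 (log2 fold change 0.22, 95% interval -0.01 to 0.45) and Ciita did not pass. With library totals as the scale Cd74 (-0.28, edgeR, adjusted p = 0.0465) and Ciita (-0.81, 0.0122) were called lower. This comparison shares its libraries with those above, so it adds no independent test.

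To compare levels between genes, CPM were divided by the length of the principal transcript in kilobases. In stimulated cells Cd74 led with 1076 ± 39.9 CPM per kilobase (SD, n = 3), followed by H2-Aa with 220.0 ± 5.96, H2-Ab1 with 177 ± 8.40, Pdcd1lg2 with 131 ± 7.59, Cd274 with 119 ± 2.72 and H2-Eb1 with 81.3 ± 8.21. Cd86 with 18.2 ± 1.11, Cd80 with 1.71 ± 0.298 and Ciita with 1.02 ± 0.196 were far below. Of neighbours in this order, the ranges of mean ± SD of Cd80 and Ciita came near each other without touching, as did those of Pdcd1lg2 and Cd274. In resting cells Cd274 (29.2 ± 3.25) and Pdcd1lg2 (25.3 ± 4.05) stood below H2-Eb1 (100.3 ± 5.03) and overlapped in mean ± SD. In difamilast cells Cd74 (1204 ± 43.9), H2-Aa (195 ± 4.49) and H2-Ab1 (173 ± 6.15) led again, Cd274 (138 ± 1.39) stood above Pdcd1lg2 (93.1 ± 16.4), and Cd80 reached 6.21 ± 0.275. The order depends on the transcript taken for the length, since 8 of the genes have more than 1 annotated transcript, Cd274 being the exception. It also depends on the division itself. Polyadenylated RNA was caught on oligo-dT beads, and whether counts grow with transcript length in these libraries was not tested.

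Other genes of antigen presentation were read from lists, of which the counts and medians are given without a test of the list. Of all tested genes, 15.3% were called higher and 16.4% lower with stimulation, and 2.21% higher and 1.24% lower with difamilast. Genes of class II processing and peptide loading fell in 7 of 15 tested cases with stimulation and rose in 1, with a median log2 fold change of -0.28 beside 0.06 over all tested genes; with library totals as the scale 11 fell and 0 rose. Of the 14 monocyte and macrophage markers, 8 also fell and 1 rose, with a median of -0.46; their part in the result was not tested. The lysosomal proteases Ctsd (1517 ± 105 CPM in difamilast, 1332 ± 23.1 in stimulated and 2890.0 ± 500.1 in resting libraries) and Ctsb (log2 fold change -0.82, adjusted p = 8.06e-05) fell, as did Ctsh (-0.64, adjusted p = 0.000214) and Marchf8, a ubiquitin ligase gene (-1.49, adjusted p = 4.36e-08). The peptide exchange genes did not pass with stimulation, at log2 fold changes of 0.09 for H2-DMa, -0.19 for H2-DMb1 and 0.43 for H2-DMb2. Nor did the genes of the exchange inhibitor, H2-Oa (0.25) and H2-Ob (-0.10). With library totals as the scale H2-DMa (-0.43), H2-DMb1 (-0.71) and H2-Ob (-0.62) were called lower. With difamilast, where the median was -0.07, none of the 15 passed in edgeR; 5 had an unadjusted p under 0.05, and DESeq2 and limma-voom called 0 as well. The peptide exchange genes H2-DMa and H2-DMb1 had log2 fold changes of -0.36 (adjusted p = 0.301) and -0.35 (0.244), Ifi30, a lysosomal thiol reductase, -0.41 (0.255) and H2-Ob, a subunit of the exchange inhibitor, 0.38 (0.225). Leaving out difamilast replicate 3 called H2-DMa lower (adjusted p = 0.0482), and leaving out resting replicate 1 called Ifi30 lower (0.0444).

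Class I genes, which present peptides to CD8 T cells, went the other way with stimulation. Of 19, 16 rose and the other 3 did not pass, beside 15.3% of all tested genes called higher. The median log2 fold change was 0.99, and with library totals as the scale 11 rose and 2 fell. Tapbp, the tapasin gene, lay at 998 ± 27.6 CPM in difamilast, 1047 ± 16.4 in stimulated and 278 ± 27.1 in resting libraries, and the log2 fold change with stimulation was 1.92 (adjusted p = 1.42e-09). The nonclassical class I gene H2-T23 rose by 1.39 (adjusted p = 1.28e-07) and the proteasome activator genes Psme1 and Psme2 by 1.49 (1.68e-06) and 2.62 (1.82e-07), all on the log2 scale. With difamilast 3 of 19 fell in edgeR, beside 1.24% of all tested genes. Psmb10 fell by 0.85 (adjusted p = 0.0019), Psme2 by 0.85 (0.0272) and Psmb8, like Psmb10 an immunoproteasome subunit, by 0.59 (0.0131). The median of the 19 was -0.21. Psme1 had -0.52 (adjusted p = 0.0665) and passed without difamilast replicate 3 (0.0319) or resting replicate 1 (0.000866), and with DESeq2 (0.0263), limma-voom (0.0291) and the replicate number as a block (0.0303). The count was 1 without difamilast replicate 1 or 2 or stimulated replicate 1 or 3, 5 without difamilast replicate 3 or with DESeq2, 6 without resting replicate 1 or with low counts unfiltered, and 7 in a fit of those groups alone. Removal of the trend with transcript length gave a count of 4. Psmb10 passed in all 18 alternatives. Psmb8 missed the threshold in the 4 leave-outs with a count of 1 (adjusted p from 0.0682 to 0.101), and Psme2 without any one library other than difamilast replicate 3 or resting replicate 2 or 3 (0.0576 to 0.176). Class I genes resemble each other, and Psme2 resembles Psme2b, so their counts may hold shared reads.

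Factors that act on the class II promoters or on Ciita rose in 10 of 19 cases and fell in 1 with stimulation. Of all tested genes, 15.3% were called higher and 16.4% lower. The median log2 fold change of the 19 was 0.38, and with library totals as the scale 4 rose and 9 fell. The transcription factor gene Irf4 lay at 16.1 ± 1.94 CPM in difamilast, 36.2 ± 4.39 in stimulated and 3.58 ± 1.13 in resting libraries. Socs1, a brake on cytokine signalling, rose by 3.27 (adjusted p = 6.54e-11) and Prdm1, the gene of the Ciita repressor Blimp-1, by 1.55 (3.61e-05). With difamilast edgeR called Irf4 alone, at -1.17 ± 0.17 (adjusted p = 0.000834), beside 1.24% of all tested genes called lower. The median of the 19 was -0.10. The count was 4 without resting replicate 1, 2 with DESeq2, limma-voom or low counts unfiltered, and 5 in a fit of those groups alone. Rfx5, the DNA-binding subunit of the X box complex, had -0.57 (adjusted p = 0.129), Creb1 -0.29 (0.178) and the coactivator gene Crebbp 0.42 (0.0658). Leaving out resting replicate 1 called Rfx5 (0.0477) and Crebbp (0.00352), and Crebbp also passed with DESeq2 (0.0121), limma-voom (0.034) and low counts unfiltered (0.0196).

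Of 15 tested other ligands and adhesion partners, 6 rose and 5 fell with stimulation, beside 15.3% of all tested genes called higher and 16.4% lower. The median log2 fold change of the 15 was 0.35, and with library totals as the scale 2 rose and 5 fell. Icam1, the adhesion ligand of LFA-1, lay at 160.0 ± 14.0 CPM in difamilast, 354 ± 7.49 in stimulated and 59.5 ± 5.93 in resting libraries. Tnfsf14, the gene of the costimulator LIGHT, rose by 2.53 (adjusted p = 2.16e-10) and Lgals9 by 0.72 (0.000109), while the checkpoint gene Vsir fell by 0.88 (5.45e-05). With difamilast 2 of the 15 fell in edgeR, beside 1.24% of all tested genes. Icam1 fell by 1.15 (adjusted p = 9.21e-06) and Cd40, a receptor for help from T cells, by 0.74 (0.0169). The median of the 15 was -0.19. Cd40 missed the threshold without difamilast replicate 1 (0.0603) or 2 (0.119) or stimulated replicate 1 (0.0983) or 3 (0.121), the count was 1 in those 4 leave-outs, and it was 5 without resting replicate 1 or in a fit of those groups alone. Cd48 had -0.59 (adjusted p = 0.0628) and Lgals9 -0.34 (0.107), and without resting replicate 1 both passed (0.000569 and 0.0115), Cd48 also without resting replicate 3 (0.0468).

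Receptors for these ligands, best known from T cells, were also present. Tnfrsf9, the gene of 4-1BB, lay at 1338 ± 145 CPM in difamilast, 831 ± 45.9 in stimulated and 145 ± 4.83 in resting libraries, and Icos at 51.9 ± 9.98 CPM in difamilast, 28.9 ± 1.70 in stimulated and 9.54 ± 1.62 in resting libraries. The 10 markers of T and NK cells summed to 36.1 to 39.8 CPM in difamilast, 38.0 to 41.4 in stimulated and 24.8 to 38.4 in resting libraries. Of these markers, 2 averaged under 1 CPM in difamilast and stimulated and 3 in resting libraries, Trac among them in each group. The part of T and NK cells in the result was not tested. With difamilast, where the median log2 fold change was 0.40, 4 of 9 rose, beside 2.21% of all tested genes. In edgeR, Tnfrsf9 rose by 0.69 (adjusted p = 0.000944), Icos by 0.84 (0.00511), Ctla4 by 1.60 (0.0172) and Pdcd1, the PD-1 gene, by 1.48 (0.0455). With stimulation edgeR called Tnfrsf9, Icos and Tnfrsf4 (1.35, adjusted p = 0.000263) higher, beside 15.3% of all tested genes. It called Ctla4 (-1.22, adjusted p = 0.0216) and Pdcd1 (-1.15, 0.0445) lower, beside 16.4%. The median was -0.24 over the 9, and with library totals as the scale 3 rose and 6 fell. Ctla4 and Pdcd1 averaged under 4 CPM in every group. Ctla4's rise missed the threshold without difamilast replicate 2 (0.0548) or stimulated replicate 1 (0.0637) or 3 (0.115), its fall without stimulated replicate 3 (0.0822) or resting replicate 3 (0.0796). Pdcd1 missed it in 1 comparison or both whichever library other than resting replicate 2 was left out (adjusted p from 0.0513 to 0.248), and the difamilast rise of Icos did without difamilast replicate 2 (0.0513). The count with difamilast was then 1 without difamilast replicate 2 and 2 without stimulated replicate 1 or 3 or after thinning, and the count with stimulation was 3 without stimulated replicate 3 or after thinning.

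**Figure D4:**
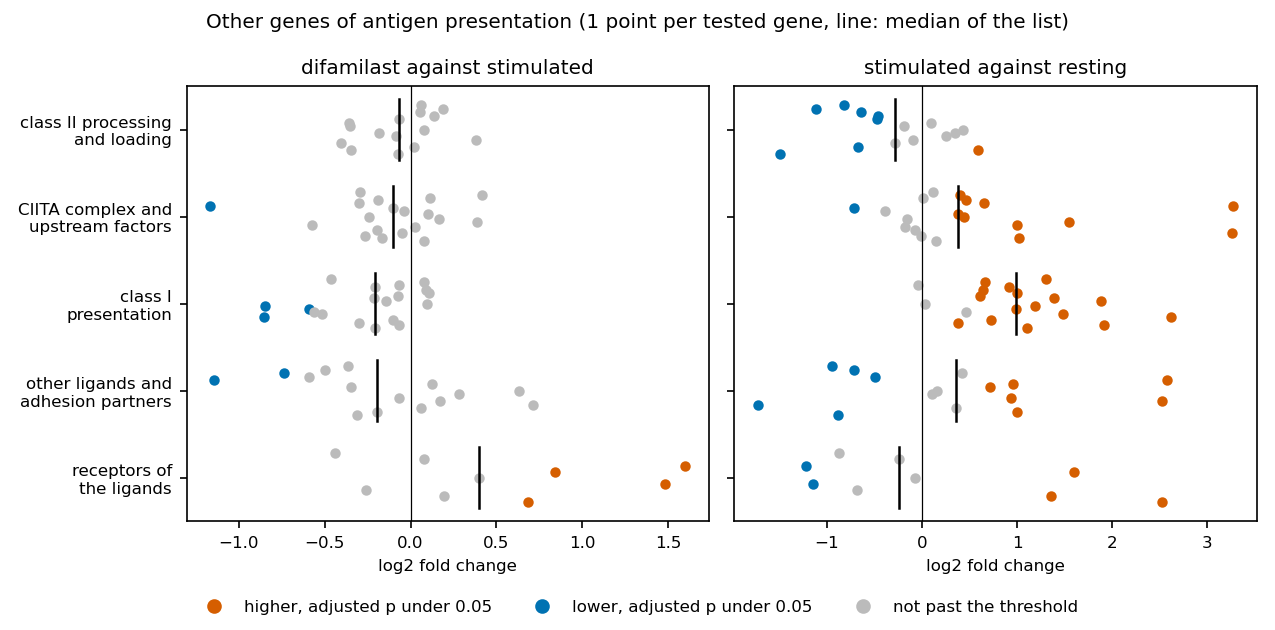
Log2 fold change of each tested gene in 5 lists, difamilast over stimulated on the left and stimulated over resting on the right, with a line at the median of the list and colours for an adjusted p under 0.05. With stimulation 16 of 19 class I genes rose (11 with library totals as the scale), while 7 of 15 class II processing genes fell (11 on that scale). Of all tested genes, 15.3% were called higher and 16.4% lower with stimulation.

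Within the 9 genes, log2 CPM over the 9 libraries gave Pearson's r of 0.94 between H2-Aa and H2-Ab1, 0.93 between H2-Aa and H2-Eb1, 0.94 between Cd274 and Pdcd1lg2 and 0.96 between Cd274 and Cd86, but 0.53 between Cd80 and Pdcd1lg2 and 0.10 between Ciita and H2-Aa. Cd74 had r of -0.33 with H2-Aa. These values describe 9 libraries that fall into 3 groups, and they follow the group levels. Among 7817 other genes of at least 10 CPM, those most like Cd274 were Dennd5a and Prkd3 (r = 0.998 each), and those most like Pdcd1lg2 were Gadd45b (0.999) and the chemokine gene Ccl3 (0.998). Cd80 was most like Arg2 (0.989), an arginase gene, and Ammecr1 (0.984), and Cd86 most like Klhl3 (0.991) and Abtb2 (0.989). H2-Aa was most like Arhgdib (0.994) and Rpia (0.993), H2-Ab1 like Apoe and Alox5ap (0.975 each), H2-Eb1 like Slc35a1 (0.982) and Dusp3 (0.969), Ciita like Larp4b (0.986) and Pitpnb (0.968) and Cd74 like Smchd1 (0.952) and Tmigd3 (0.929). Apoe is also among the monocyte and macrophage markers given above.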

How the data were processed

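Raw read counts per gene symbol were deposited by the authors for 9 bulk libraries. Per the labels' protocols, polyadenylated RNA was caught on oligo-dT beads, amplified by the TAS-Seq procedure, fragmented and sequenced, with no mention of molecular identifiers, so counts may hold amplification copies. The submitters' processing notes list cutadapt 4.1, Bowtie2 2.4.5 and GRCm38 without a role or order; the sources used here do not give a counting tool, annotation or strand setting.

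Counts were fitted with edgeR 4.0.16 (R 4.3.3): TMM scaling, filterByExpr (minimum count 10, minimum total 15), robust quasi-likelihood, all 9 libraries in a single fit with 6 residual degrees of freedom. P-values were adjusted by Benjamini-Hochberg over 21341 genes. Levels are TMM-normalised CPM. GENCODE vM21 (GRCm38) gave positions and lengths, matching 34339 of 35673 symbols; 20670 of the tested genes (96.9%) had a length. Promoters are RefSeq's.

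The members, lists and tests were chosen with earlier results of these data known. Named beside the members were up to 4 genes per list and comparison with the smallest p, and the 2 genes most correlated with each member. Tnfrsf4, H2-Ea, H2-DMb2, H2-Oa, Dexi, Flt3, Zbtb46, Bst2, Trac and Cd209a were added to the genes of this rule. A gene that this rule names is not reported here. Alternatives were DESeq2 1.42.0, limma-voom 3.58.1, RLE scaling, no filter, the compared groups alone, a replicate block, removal of a lowess trend (span 0.3) with transcript length, thinning to the shallowest library, each library left out and, added after seeing the data, scaling by totals. The fits were also run on simulated counts in which few genes changed. Those counts held no broad difference in composition between groups, so they did not test the scaling. Counts of libraries in a group differed beyond sampling noise, so none were merged.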

Additional observations from a re-analysis of the deposited data

How the results depend on the processing

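Over 18 alternatives, Cd274 and Pdcd1lg2 for stimulation and Cd80 for difamilast passed the threshold in every one, as did all 7 calls between difamilast and resting libraries. With library totals as the scale, the stimulation comparison called 10075 genes (1326 higher, 8749 lower) in place of 6770 (3273 higher, 3497 lower), and difamilast against resting called 10979. On that scale, stimulated over resting gave log2 fold changes of -0.46 for Cd74, 0.30 for Ciita, 0.10 for Cd80, 0.17 for Cd86, -0.43 for H2-DMa, -0.12 for Crebbp, -0.41 for Creb1 and -0.105 for Cd40. Difamilast over resting gave -0.28 for Cd74, -0.81 for Ciita, -0.23 for H2-Ob, -0.0794 for Rfx5, -0.17 for Psmb10, -0.10 for Psmb8, -0.14 for Lgals9, -0.13 for Ctla4 and -0.17 for Pdcd1, and difamilast over stimulated -0.49 for Pdcd1lg2. Cd74 and Ciita were then called lower in difamilast than in resting libraries. This scale moved the median of all genes to -0.47 and -0.50 in the comparisons with resting libraries. For difamilast over stimulated that median was 0.0155, and Pdcd1lg2 had -0.50 with TMM.

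H2-Eb1 for stimulation had -0.33 with low counts unfiltered, -0.31 with the 2 groups alone, -0.31 with the replicate block and -0.28 after thinning, and Cd80 had 0.63 with the 2 groups alone and 0.57 with limma-voom. For difamilast over stimulated, Pdcd1lg2 had -0.48 with DESeq2, -0.47 with low counts unfiltered, -0.50 with the 2 groups alone, -0.51 with limma-voom and -0.49 without the length trend, Cd86 had 0.33 with DESeq2 and 0.32 with the 2 groups alone, Ciita had -1.08 after thinning and H2-Ab1 had 0.0468 without the length trend. That comparison called 1117 genes with DESeq2, 1351 with low counts unfiltered and 1673 with the 2 groups alone, in place of 735, with 64.1% of calls higher against 51.0% with low counts unfiltered and 49.7% with the 2 groups alone. Of the 9 genes it called 4 with DESeq2, 4 with the 2 groups alone and 1 after thinning. The cause of these moves was not tested; thinning matched library totals and also lowered the number of tested genes to 15965.

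Leaving out a library each in turn gave 347 to 1693 genes called for difamilast over stimulated and 1 to 4 of the 9 genes, and 4 to 8 of the 9 for stimulation. The log2 fold changes for stimulation ran from -0.0746 to 0.0997 for Cd74, -0.51 to -0.34 for H2-Aa, -0.54 to -0.36 for H2-Ab1, -0.38 to -0.22 for H2-Eb1, 0.63 to 0.98 for Ciita and 0.48 to 0.76 for Cd80. For difamilast over stimulated they ran from -0.0549 to 0.0041 for H2-Ab1, -1.28 to -0.95 for Ciita, 0.29 to 0.37 for Cd86, -0.65 to -0.41 for Pdcd1lg2 and -0.10 to 0.0376 for Socs1.

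Correlations of the deviations of libraries with the same replicate number ran from -0.40 to 0.42, and no comparison had all 3 above 0.1, so the numbers were not taken to pair the libraries; a shared origin is not settled by this. With the replicate number as a block, 6489, 700 and 6652 genes were called for stimulation, for difamilast over stimulated and for difamilast over resting, and H2-Eb1 for stimulation (adjusted p = 0.0501) was the only one of the 9 genes whose call changed. Depth limits the scarce genes, with 30 to 221 counts a library for Ciita and 24 to 542 for Cd80.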
